A study of Mus musculus with 6 samples.

Results

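The genes followed in mouse liver are 10 targets of the tumour suppressor p53 that act in cell cycle arrest and the stress response: Cdkn1a, Mdm2, Ccng1, Btg2, Gadd45a, Gadd45b, Gadd45g, Sesn1, Plk2 and Trp53inp1. They were found on the array by the gene name of each probe, which gave 18 probes for the 10 genes, of 41174 probes and 27376 gene names that were not controls. The livers came from male BALB/c mice that were 6 weeks old at the start. In the MC-LR group, 3 mice drank water with 100 µg/L microcystin-LR for 12 months, and in the control group 3 mice drank sterile water for the same time. Microcystin-LR (MC-LR) is a cyanobacterial toxin that is taken up by hepatocytes and inhibits serine/threonine protein phosphatases. Each liver, from a separate mouse per the labels, was run on 1 Agilent array with a single dye. The groups hold 1 dose, 1 time and 1 sex.

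p53 is a transcription factor that is kept low in unstressed cells, because MDM2, the product of one of its own target genes, marks it for degradation. DNA damage and other stresses release p53, which then switches on genes that halt the cell cycle (Cdkn1a, Btg2) and end the response again (Mdm2). Others take part in the response to damage and stress (the Gadd45 genes, Sesn1, Plk2, Trp53inp1), and the product of Ccng1 recruits a phosphatase to MDM2. Most of these genes also answer to other signals in the liver: Btg2 and Gadd45b are early response genes, Gadd45a is a target of the amino acid and endoplasmic reticulum stress response, and Cdkn1a restrains hepatocyte division during regeneration.

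The values are the log2 signals that the authors deposited after quantile normalization between arrays, so that 1 unit is a doubling of signal. The share of spots well above background was 64.9% to 73.7%, no array had saturated spots, and precision is limited by how many arrays there are. Slide 1 carried controls 1 and 2. Slide 2 carried all 3 MC-LR arrays together with control 3, so that the groups can be compared within slide 2, where the spread comes from the MC-LR arrays alone. The labelled tissue was checked with hepatocyte markers, of which Alb (albumin) stood at 18.14 to 18.22 in MC-LR livers and 18.01 to 18.17 in control livers. The tissue was whole liver, so fewer cells of a type and less RNA per cell cannot be told apart.

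All 18 member probes were well above background on all 6 arrays, and 15 of them had a lower mean in MC-LR livers, beside 49.6% of all probes tested. In limma's test with Benjamini-Hochberg adjustment over the 28500 probes tested, 0 of the 18 passed an adjusted p of 0.05, and over the whole array 3 probes did (0.0105% of those tested). At an unadjusted p under 0.05, 8 of the 18 were lower and 0 higher, beside 5.03% lower and 7.89% higher of all probes tested. These 8 belong to 5 genes (Cdkn1a, Mdm2, Ccng1, Btg2 and Gadd45b), and probes of a gene read the same RNA. The count of 8 was 3 without MC-LR 1 (2.90% of all probes lower in that fit), 4 without control 1 (2.76%), 5 without control 2 (3.38%) and 5 within slide 2 (5.71%). On 6 of the 18 probes every MC-LR array lay below every control array, against 8.54% of all probes tested. With 1 probe per gene, the brightest, the median difference of the 10 genes was -0.39 (MC-LR minus control, log2), beside -0.01 over all 18904 genes tested, and 8 of the 10 lay below 0. That median was -0.22 without MC-LR 1.

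**Figure D1:**
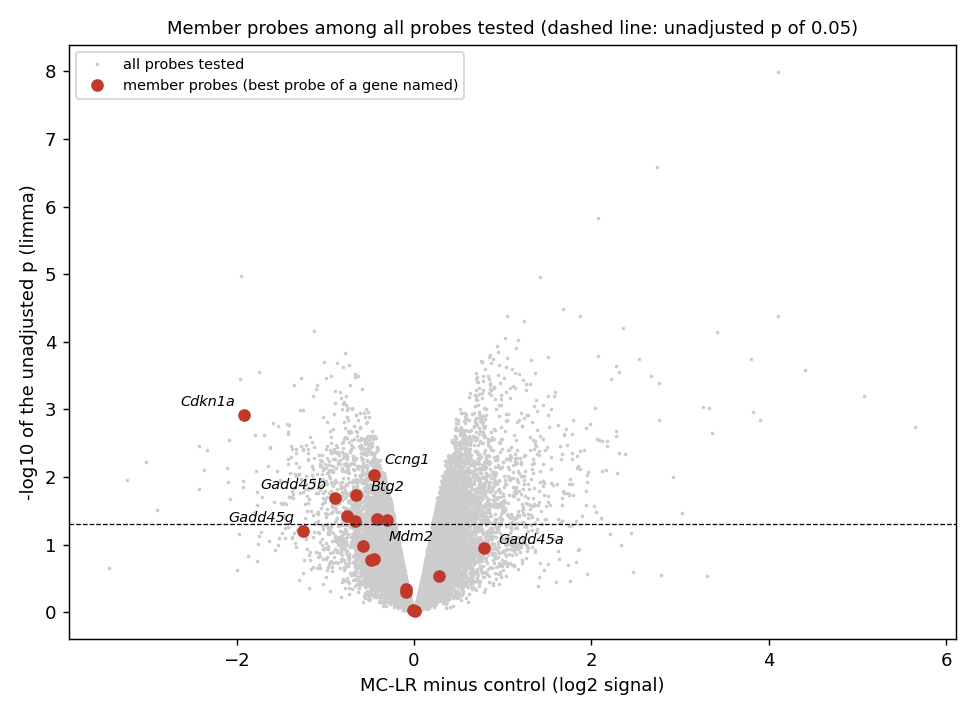
Each grey point is 1 of the 28500 probes tested, by its MC-LR minus control difference (log2, x axis) and the -log10 of its unadjusted p from limma (y axis), and the red points are the 18 member probes. The member probes above the dashed line, at an unadjusted p of 0.05, all lie left of 0, with Cdkn1a farthest left at -1.91.

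**Figure D2:**
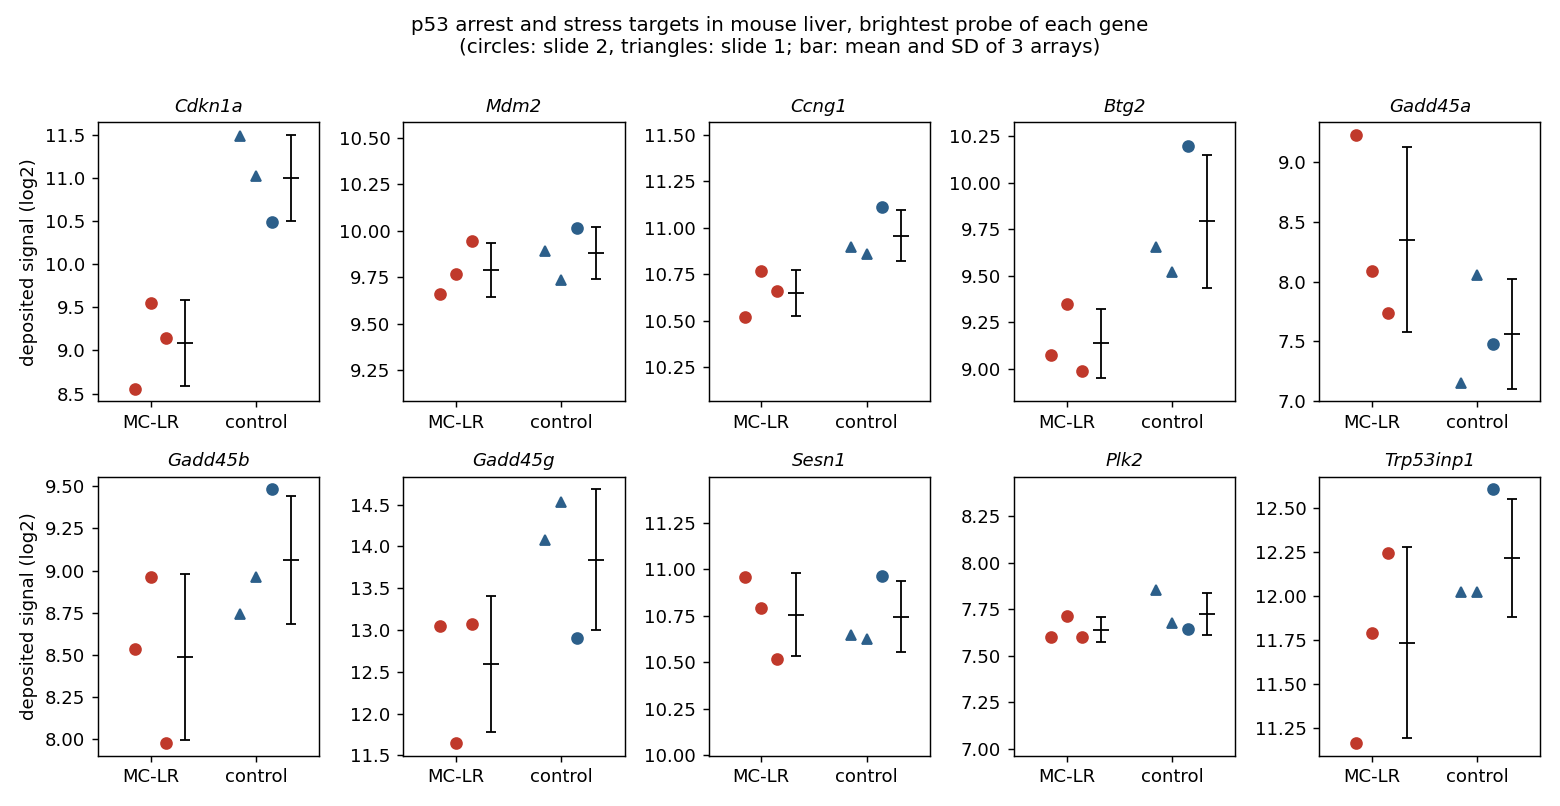
Deposited log2 signal (y axis) of the brightest probe of each gene on the 6 arrays, with the mean and SD of each group, where circles are arrays of slide 2 and triangles arrays of slide 1. Cdkn1a, Ccng1 and Btg2 have all MC-LR arrays below all control arrays, while Sesn1 and Plk2 overlap throughout.

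Cdkn1a, which encodes p21, the inhibitor of cyclin-dependent kinases that carries out the p53-dependent arrest, had the largest difference. It stood at 8.56, 9.55 and 9.14 in MC-LR livers 1 to 3, against 11.48, 11.02 and 10.49 in control livers 1 to 3 (log2 signal). The highest MC-LR liver lay 0.94 below the lowest control liver, which was control 3. The SD was 0.50 in MC-LR livers and 0.50 in control livers (n = 3 each), and the means differed by -1.91 ± 0.34 (SE), or 3.77-fold lower with MC-LR. By limma the unadjusted p was 0.00120, rank 160 of the 28500 probes, and the adjusted p = 0.210 did not pass. An exact two-sided permutation test of 3 against 3 arrays gave p = 0.1, the smallest that this design allows. Within slide 2 the difference from control 3 was -1.40 ± 0.41 (SE; limma, adjusted p = 0.361). With each array left out in turn the difference ranged from -2.17 to -1.65.

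The Cdkn1a probe is printed 10 times on each array, which gives the spread between spots of an array. Each liver was run on 1 array, so error from labelling and hybridisation is part of the spread between livers. The processed signals of these spots, before any normalization between arrays, ran from 368 to 398 in MC-LR liver 1, from 813 to 896 in MC-LR liver 2 and from 561 to 607 in MC-LR liver 3. In the control livers they ran from 2387 to 2664 in control 1, from 1568 to 1825 in control 2 and from 1597 to 1785 in control 3. No spot of an MC-LR array reached a spot of a control array. The SD of log2 signal between spots of an array was 0.04 to 0.06 against 0.50 between the livers of a group.

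**Figure D3:**
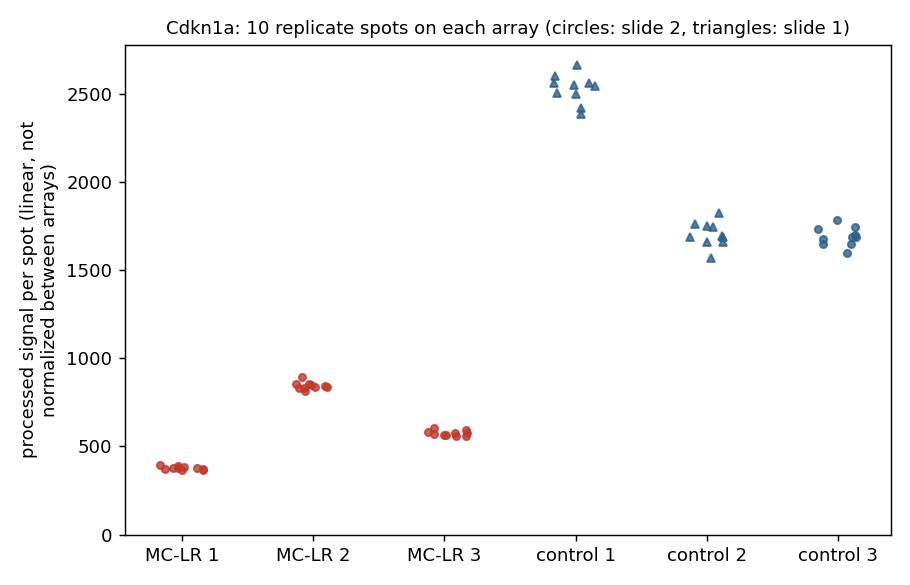
Processed signal (y axis, linear, not normalized between arrays) of the 10 Cdkn1a spots on each of the 6 arrays, with circles for slide 2 and triangles for slide 1. The MC-LR spots lie between 368 and 896 and the control spots between 1568 and 2664.

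The probe lies at chromosome 17, 29237377 to 29237436 (mm9, the build named in the file headers), from base 1619 of transcript NM_007669, and no exon annotation of that build was used here. RefSeq gives Cdkn1a a pair of transcription start sites 2790 bases apart. The windows from 250 bases before to 50 bases after each start are shown because Cdkn1a had the largest difference and the p53 motif differs between them. They are RefSeq sequences of GRCm38.p6, plus strand, at chr17:29090729-29091028 (upstream) and chr17:29093519-29093818 (downstream), with matches to the p53 motif in capitals.

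Cdkn1a upstream start: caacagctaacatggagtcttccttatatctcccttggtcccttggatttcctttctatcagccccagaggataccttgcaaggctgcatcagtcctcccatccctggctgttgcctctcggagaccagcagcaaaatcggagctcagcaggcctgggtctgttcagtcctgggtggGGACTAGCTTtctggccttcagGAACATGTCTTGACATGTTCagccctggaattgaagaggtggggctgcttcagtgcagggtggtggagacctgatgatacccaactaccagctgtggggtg
Cdkn1a downstream start: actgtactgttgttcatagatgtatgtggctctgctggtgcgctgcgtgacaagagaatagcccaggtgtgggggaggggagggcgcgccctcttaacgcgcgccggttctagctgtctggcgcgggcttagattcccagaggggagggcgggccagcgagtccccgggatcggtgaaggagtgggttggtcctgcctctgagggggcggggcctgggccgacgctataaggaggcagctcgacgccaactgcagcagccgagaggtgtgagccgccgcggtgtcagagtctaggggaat

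The upstream window holds 2 exact matches to the 10-base p53 motif, 73 and 51 bases before the start, and the downstream window holds 0. The match at 51 bases opens a 20-base p53 site, 2 such motifs side by side with at most 1 mismatch in all, that reads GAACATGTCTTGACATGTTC. Of the 32851 RefSeq windows of this length, 8.36% hold the 10-base motif and 0.0548% (18 windows) hold the 20-base site, both strands searched. A match describes the sequence only. Of the 10 genes, 9 had a window in the RefSeq table (11 windows), 5 of them with the 10-base motif (Ccng1, Cdkn1a, Gadd45a, Mdm2 and Sesn1) and 1 with the 20-base site.

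Mdm2, which encodes the ubiquitin ligase that degrades p53, was read by a pair of probes, whose difference from each other was not tested. The probe from base 921 of NM_010786 stood at 7.15, 7.03 and 7.54 in MC-LR livers, against 7.78, 7.66 and 7.52 in control livers. MC-LR 3 lay just above control 3, so the groups overlapped on this probe. The difference was -0.41 ± 0.16 (SE; limma, unadjusted p = 0.0416, adjusted p = 0.370), or -0.28 within slide 2. The second probe, from base 2650, stood at 9.66, 9.77 and 9.95 in MC-LR livers, against 9.89, 9.73 and 10.01 in control livers. Its difference was -0.09 ± 0.13 (SE; limma, unadjusted p = 0.508, adjusted p = 0.795), with a 95% interval of -0.40 to 0.22, or -0.22 within slide 2. The first of these is also printed 10 times on each array, with an SD of log2 signal between spots of 0.07 to 0.12, and it is shown as the Mdm2 probe with the smaller p (mm9, chr10:117129725-117129784, minus strand).

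Mdm2 probe A_51_P201346: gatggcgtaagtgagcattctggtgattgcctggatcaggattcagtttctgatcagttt

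Ccng1 and Btg2, both downstream of p53, were lower on every probe. Ccng1, cyclin G1, which recruits a phosphatase to MDM2, stood at 10.52, 10.77 and 10.66 in MC-LR livers, against 10.90, 10.86 and 11.11 in control livers on its brighter probe (from base 1068 of NM_009831). All MC-LR livers lay below all control livers, by a gap of 0.09. The difference was -0.31 ± 0.12 (SE; limma, unadjusted p = 0.0432, adjusted p = 0.374). Its other probe, from base 3054, stood at 10.21, 10.54 and 10.30 in MC-LR livers, against 10.72, 10.83 and 10.86 in control livers. It too kept the groups apart, with a difference of -0.45 ± 0.12 (SE; limma, unadjusted p = 0.00936, adjusted p = 0.268). Within slide 2 the 2 probes differed by -0.46 and -0.51.

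Btg2, an antiproliferative protein that binds the mRNA deadenylase complex, had 3 probes along its transcript. The probe from base 549 of NM_007570 stood at 9.07, 9.34 and 8.99 in MC-LR livers, against 9.65, 9.52 and 10.20 in control livers. The groups were apart on this probe by 0.18, and control 3 was the highest of the 6 livers. The difference was -0.66 ± 0.21 (SE; limma, unadjusted p = 0.0183, adjusted p = 0.308). The probe from base 284 differed by -0.67 ± 0.26 and the probe from base 2371 by -0.76 ± 0.29 (SE; limma, adjusted p = 0.377 and 0.363), with the groups apart on the one from base 284 only. Control 3 exceeded the mean of controls 1 and 2 by 0.61 to 0.88 on the 3 probes, so within slide 2 the differences were larger, -1.27 to -1.06 (limma, unadjusted p = 0.00225 to 0.0157, adjusted p = 0.268 to 0.329). The probe from base 284 is shown with the promoter, because 3 probes spread over the transcript gave differences of like size (mm9, chr1:135974181-135974240, minus strand).

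Btg2 probe A_52_P35217: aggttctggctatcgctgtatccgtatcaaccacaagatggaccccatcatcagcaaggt
Btg2 start: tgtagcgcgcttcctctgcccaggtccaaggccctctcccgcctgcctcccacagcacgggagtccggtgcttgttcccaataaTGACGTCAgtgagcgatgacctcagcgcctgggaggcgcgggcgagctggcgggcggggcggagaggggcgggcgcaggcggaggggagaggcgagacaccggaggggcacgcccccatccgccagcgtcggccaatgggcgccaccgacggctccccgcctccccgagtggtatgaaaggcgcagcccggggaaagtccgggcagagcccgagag
Ccng1 start: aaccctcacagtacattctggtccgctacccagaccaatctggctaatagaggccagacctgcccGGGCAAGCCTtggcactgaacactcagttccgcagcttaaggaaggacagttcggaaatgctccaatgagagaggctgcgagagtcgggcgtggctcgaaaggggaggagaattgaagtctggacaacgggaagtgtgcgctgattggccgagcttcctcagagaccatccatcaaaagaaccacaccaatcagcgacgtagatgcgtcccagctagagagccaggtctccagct

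The Btg2 window (RefSeq, GRCm38.p6, chr1:134079106-134079405, minus strand) holds TGACGTCA, the cyclic AMP response element, 166 bases before the start, and no p53 motif in these letters. That 8-base motif stands in capitals and occurs in 1.79% of all windows, and among the members also in the window of Plk2. The Ccng1 window (chr11:40755237-40755536, minus strand) is shown as a second lower gene and holds 1 exact 10-base p53 motif, in capitals, 185 bases before the start.

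The Gadd45 genes, small proteins that bind PCNA, p21 and the kinase MEKK4, did not share a direction. Gadd45a stood at 9.23, 8.09 and 7.74 in MC-LR livers, against 7.15, 8.06 and 7.48 in control livers. MC-LR 1 was highest and controls 1 and 3 lowest, and control 2 lay between MC-LR 3 and MC-LR 2. The difference was 0.79 ± 0.43 (SE; limma, unadjusted p = 0.113, adjusted p = 0.486), and without MC-LR 1 it was 0.35. Gadd45b stood at 8.06, 8.43 and 7.37 in MC-LR livers, against 8.58, 8.88 and 9.06 in control livers on the probe from base 1206 of NM_008655. The groups were apart by 0.15, with a difference of -0.89 ± 0.29 (SE; limma, unadjusted p = 0.0207, adjusted p = 0.316). The other Gadd45b probe, from base 683, stood at 8.53, 8.96 and 7.98 in MC-LR livers, against 8.74, 8.96 and 9.48 in control livers. There the groups overlapped, and the difference was -0.57 ± 0.30 (SE; limma, unadjusted p = 0.104, adjusted p = 0.473). Within slide 2 the 2 Gadd45b probes differed by -1.11 and -0.99.

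Gadd45g varied widely between the livers of each group. It stood at 13.05, 11.65 and 13.07 in MC-LR livers, against 14.08, 14.53 and 12.90 in control livers. Control 3, on the slide of the MC-LR arrays, lay below MC-LR 1 and MC-LR 3, and 1.41 below the mean of controls 1 and 2. The difference of -1.25 ± 0.55 (SE; limma, unadjusted p = 0.0625, adjusted p = 0.409) became -0.31 ± 0.65 within slide 2 (limma, adjusted p = 0.882), and -1.72 without control 3. The RefSeq windows of Gadd45b and Gadd45g each hold a CACGTG element, known as an E-box, and a TATAAA element, motifs found in 7.15% and 13.6% of all windows, and that of Gadd45a holds neither.

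Sesn1, Plk2 and Trp53inp1 showed no separation of the groups. Sesn1 encodes a sestrin, a leucine sensor that restrains mTORC1, and its brightest probe stood at 10.96, 10.79 and 10.52 in MC-LR livers, against 10.65, 10.62 and 10.96 in control livers. The difference was 0.01 ± 0.16 (SE), with a 95% interval of -0.38 to 0.40, and limma gave an adjusted p = 0.986. Its other probes differed by -0.01 and 0.28. The one at 0.28, from base 824 of NM_001013370, has mm9 ends 4163 bases apart (chr10:41618206-41622368, plus strand), so its 60 bases join separate parts of the genome, and it is shown for that reason.

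Sesn1 probe A_51_P266644: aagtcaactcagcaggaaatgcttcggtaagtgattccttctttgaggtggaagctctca

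On that junction probe Sesn1 stood at 5.61, 5.99 and 5.02 in MC-LR livers, against 5.25, 5.24 and 5.29 in control livers. The control livers lay within 0.05 of each other, and MC-LR livers stood on both sides of them. Plk2, a polo-like kinase with a role in centriole duplication, stood at 7.60, 7.72 and 7.60 in MC-LR livers, against 7.85, 7.67 and 7.64 in control livers. Its difference was -0.08 ± 0.10 (SE), with a 95% interval of -0.34 to 0.17, and limma gave an adjusted p = 0.765. Trp53inp1, a p53-induced nuclear protein that also takes part in autophagy, stood at 11.17, 11.79 and 12.25 in MC-LR livers, against 12.02, 12.03 and 12.61 in control livers on its brighter probe. MC-LR 3 lay above controls 1 and 2, and the difference was -0.48 ± 0.31 (SE; limma, unadjusted p = 0.167, adjusted p = 0.548). The second Trp53inp1 probe differed by -0.45 ± 0.29. Control 3 exceeded controls 1 and 2 by 0.58 and 0.61 on these probes, and within slide 2 the differences were -0.87 and -0.86 (limma, unadjusted p = 0.116 and 0.0895).

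**Figure D4:**
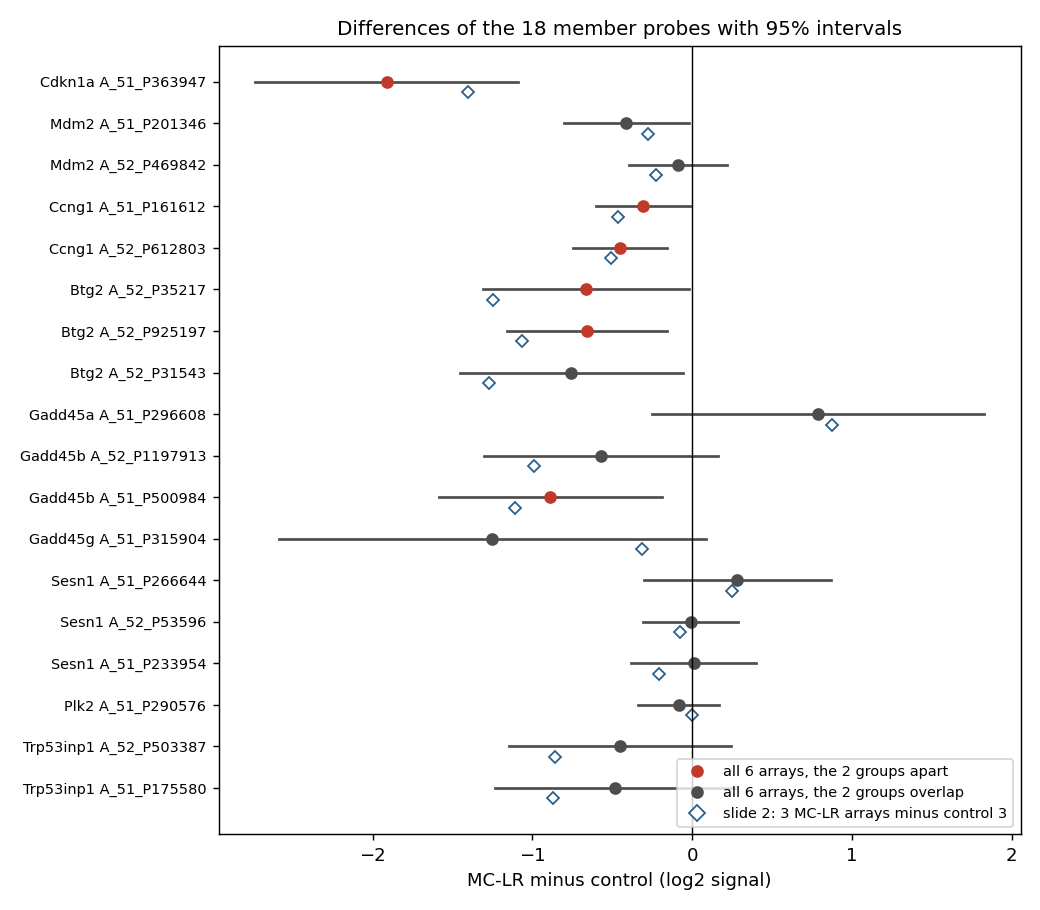
MC-LR minus control difference (x axis, log2) of each of the 18 member probes (y axis) with its 95% interval from limma, and the same difference within slide 2 as open diamonds. Red points mark the 6 probes whose groups are apart. The diamonds of Btg2 and Trp53inp1 lie left of their points, and those of Cdkn1a and Gadd45g right of them.

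Control 3 stood above both other controls on every probe of Ccng1, Btg2, Gadd45b, Sesn1 and Trp53inp1, and below both for Gadd45g. For Cdkn1a it was the lowest of 3 spaced controls in the normalized values, while its spots overlapped those of control 2. With slide as a block, a fit whose difference is that between the MC-LR arrays and control 3, 8 of the 18 probes were lower at an unadjusted p under 0.05 (limma), beside 7.40% of all probes tested, and 0 passed the adjusted threshold, beside 0.0456%. Cdkn1a (-1.40, unadjusted p = 0.0177), both Ccng1 probes and all 3 Btg2 probes were among the 8 in this fit, and Mdm2 was not. Both Gadd45b probes made up the rest. All of these but Cdkn1a were read there against a control 3 that was the highest of the 3 controls. The lowest adjusted p among the members was 0.137, for the Btg2 probe from base 284.

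The rest of the p53 pathway was read from lists of other genes. Of 60 probes for 40 other p53 targets, 10 were lower and 1 higher at an unadjusted p under 0.05 (limma), and 0 passed the adjusted threshold. The lower share was 16.7%, beside 5.03% of all probes tested, and the higher share 1.67%, beside 7.89%. The median difference over these 40 genes was -0.17 by brightest probe. The count of 10 was 6 without control 1 (2.76% of all probes lower in that fit), MC-LR 1 (2.9%) or MC-LR 3 (5.33%). It was 7 with 1 probe per gene (5.41%) or no filter on dim probes (4.49%). With probes well above background on all 6 arrays it was 9 (5.71%), and with slide as a block 13 (7.4%). Fas, the death receptor, stood at 11.17, 11.36 and 11.61 in MC-LR livers, against 12.04, 12.00 and 11.99 in control livers. Its groups were apart, with a difference of -0.63 ± 0.13 (SE; limma, unadjusted p = 0.00286, adjusted p = 0.232). Gdf15, a stress-induced hormone of the TGF-beta family, stood at 9.57, 10.06 and 9.77 in MC-LR livers, against 10.92, 10.80 and 11.85 in control livers. It differed by -1.39 ± 0.30 (SE; adjusted p = 0.239), and control 3 was the highest. Ei24, an endoplasmic reticulum protein with a role in autophagy, differed by -0.36 ± 0.09 (SE; adjusted p = 0.266). Of 41 probes for p53 itself and its regulators, 2 were lower and 0 higher at an unadjusted p under 0.05, a share of 4.88% lower beside 5.03% of all probes. With slide as a block or within slide 2, 0 were lower. The median difference over 18 genes was 0.02. The smallest p there belonged to the p53-binding protein genes Trp53bp1 (-0.29 ± 0.11) and Trp53bp2 (0.21 ± 0.10) and the deubiquitinase gene Usp7 (-0.16 ± 0.09; log2 difference and SE).

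Relatives and partners of the members were also measured. Of 24 probes for 14 paralogs, 4 were lower and 1 higher at an unadjusted p under 0.05 by limma (0 past the adjusted threshold). These were 16.7% lower and 4.17% higher, beside 5.03% and 7.89% of all probes tested. Sesn3, a sestrin under FOXO control, stood at 10.71, 10.56 and 10.60 in MC-LR livers, against 11.29, 11.10 and 11.31 in control livers, and Btg1 at 12.18, 12.25 and 12.34, against 12.75, 12.63 and 12.94. Both kept the groups apart, with differences of -0.61 ± 0.11 for Sesn3 and -0.52 ± 0.12 for Btg1 (SE; adjusted p = 0.210 and 0.244), while Tob1, an antiproliferative protein of the same family, differed by 0.32 ± 0.10. Among 19 probes for cyclins, kinases and other cell cycle partners of p21, 0 were lower and 3 higher, all from the cyclin E genes, whose products activate a kinase that p21 inhibits. Over all probes tested 7.89% were higher. Among probes well above background on all 6 arrays, 2 partner probes were higher. With slide as a block or within slide 2, 1 was higher. Ccne1 stood at 10.11, 10.47 and 8.68 in MC-LR livers, against 8.10, 8.20 and 8.72 in control livers, a difference of 1.41 ± 0.47 (SE; adjusted p = 0.325). MC-LR 3 did not exceed control 3, and with slide as a block the difference was 1.03 (limma, unadjusted p = 0.191). Ccne2 stood at 4.97, 5.28 and 4.91 in MC-LR livers, against 2.89, 3.20 and 3.46 in control livers, where it was well above background on 1 of 3 arrays (difference 1.87 ± 0.18, SE; adjusted p = 0.132). The Ccne2 probe thus entered the test only through the MC-LR group. E2f1 differed by 0.32 ± 0.24.

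Of 21 probes for kinases downstream of the GADD45 proteins, 0 were lower and 4 higher at an unadjusted p under 0.05 by limma, again with 0 past the adjusted threshold. The higher share was 19.0%, beside 7.89% of all probes tested, and with 1 probe per gene 2 were higher. When only probes well above background on all 6 arrays were fitted, 3 of the kinase probes were higher. By brightest probe the median difference over the 10 genes was 0.03. Map2k6, an activator of the p38 kinases, stood at 10.21, 9.83 and 9.78 in MC-LR livers, against 8.24 and 8.86 in controls 2 and 3, with control 1 the lowest. It differed by 1.58 ± 0.25 (SE; adjusted p = 0.172) on its brightest probe, and its 3 probes all lay above 0. Map2k3, which acts on the same kinases, differed by 0.69 ± 0.11 (adjusted p = 0.172) and Mapk11 by -0.17 ± 0.11. Proliferation markers gave 0 of 22 probes in either direction at an unadjusted p under 0.05, with Birc5 at 0.41 ± 0.31, Mcm6 at 0.71 ± 0.65 and Tyms at 0.14 ± 0.14 (log2 difference, SE). The direction of this list turned with the slide: its median by brightest probe was 0.12 over all 6 arrays and -0.31 within slide 2, with 5 and 17 of the 22 probes below 0. Within slide 2 Birc5 was at -0.14, Mcm6 at -0.29 and Tyms at 0.24.

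**Figure D5:**
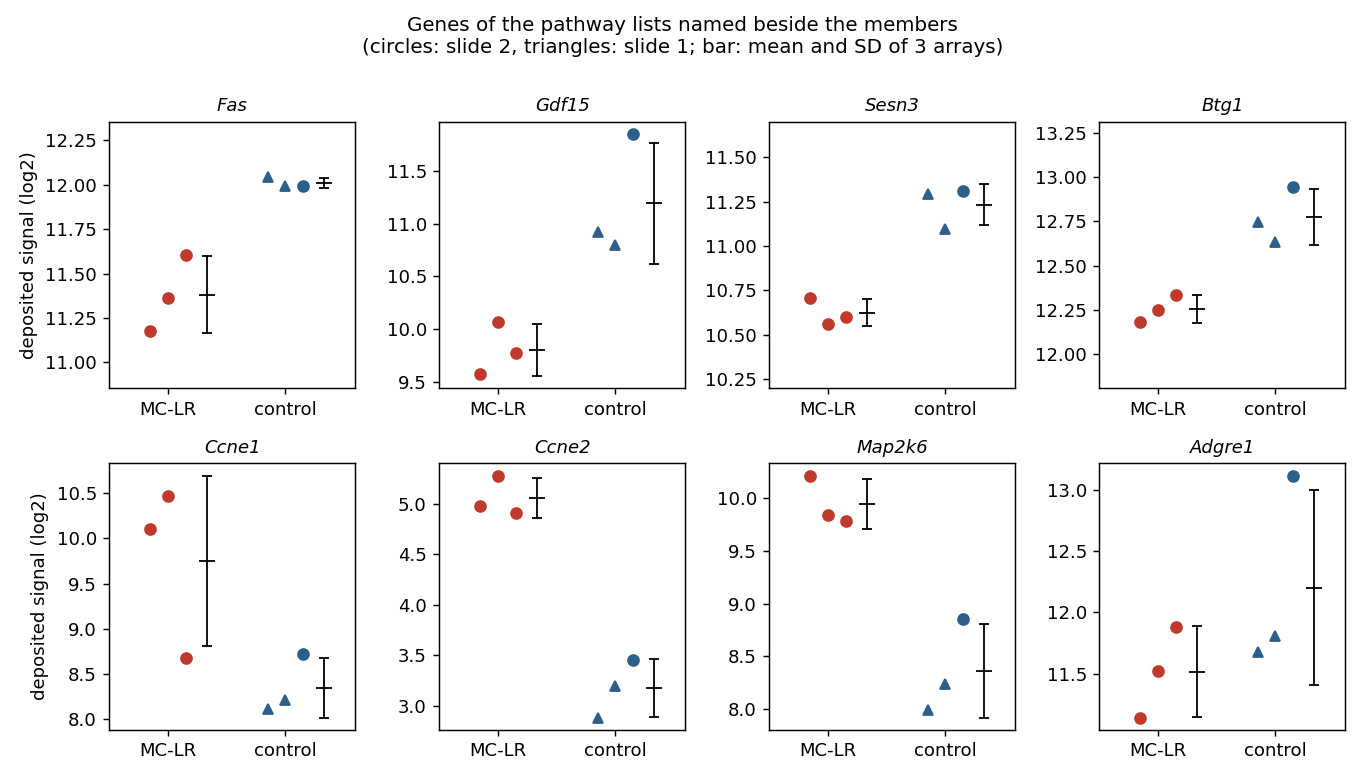
Deposited log2 signal (y axis) of 8 genes from the lists around the members on the 6 arrays, with the mean and SD of each group, circles for slide 2 and triangles for slide 1. Fas, Gdf15, Sesn3 and Btg1 lie lower and Ccne2 and Map2k6 higher on all MC-LR arrays, Ccne1 overlaps through MC-LR 3, and the macrophage marker Adgre1 is highest in control 3. The Ccne2 probe was well above background on 1 of 3 control arrays and entered the test only through the MC-LR group.

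Other signals that move Btg2 and the Gadd45 genes were read from immediate early genes, the transcripts that appear within minutes of a stimulus. Of 21 probes for 15 such genes, 0 were lower or higher at an unadjusted p under 0.05 in the comparison of all 6 arrays by limma, and with slide as a block 8 were lower. In that block fit 7.40% of all probes tested were lower. Their mean log2 level was 8.72 to 8.91 in MC-LR livers, against 8.80 and 8.81 in controls 1 and 2 and 9.52 in control 3. Fos differed by -0.57 ± 0.27, Junb by -0.34 ± 0.17 and Fosb by -0.26 ± 0.11 (SE). Whether the immediate early level of control 3 takes part in the Btg2 and Gadd45b values was not tested.

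In mean marker level, control 3 was the highest control for Kupffer, stellate, cholangiocyte, and lymphocyte and neutrophil markers. It was the lowest control for endothelial and hepatocyte markers. The mean log2 level of 10 Kupffer cell markers was 10.91 to 11.59 in MC-LR livers, against 11.29 and 11.33 in controls 1 and 2 and 12.14 in control 3. All 10 had a lower mean with MC-LR, and 0 of 13 probes were lower at an unadjusted p under 0.05, or 5 with slide as a block. Over all probes tested 5.03% were lower and 7.89% higher, or 7.40% lower with slide as a block. Adgre1, which encodes the macrophage antigen F4/80, differed by -0.69 ± 0.42, C1qa by -0.47 ± 0.28 and Timd4 by -0.46 ± 0.28 (SE). The 8 endothelial markers had mean levels of 9.53 to 9.90 in MC-LR livers, against 9.96 to 10.13 in control livers, so these groups did not overlap. Probe by probe, 2 of 14 kept the groups apart with MC-LR lower and 1 with MC-LR higher, beside 8.54% and 11.7% of all probes tested. The median of this list by brightest probe was -0.41 over all 6 arrays and -0.15 within slide 2, with 12 and 8 of the 14 probes below 0. Pecam1 differed by -0.54 ± 0.10, Cdh5 by -0.44 ± 0.14 and Stab2 by -0.30 ± 0.16 (SE). Of 14 endothelial probes 2 were lower and 1 higher at an unadjusted p under 0.05, or 4 lower and 0 higher with slide as a block, and Stab2 was at 0.02 within slide 2. The 8 stellate cell markers had mean levels of 9.16 to 9.50 in MC-LR livers, against 9.18 to 9.81 in control livers, with Acta2 at -0.34 ± 0.09 (its 3 probes ran from -0.80 to 0.21), Lrat at 0.95 ± 0.33 and Pdgfrb at -0.33 ± 0.21. Lrat was 0.20 within slide 2, where control 3 (8.06) stood above controls 1 and 2 (7.05 and 6.81). Of 16 stellate probes, 1 was lower and 2 higher, or 4 lower and 0 higher with slide as a block. The 6 cholangiocyte markers lay at 7.23 to 8.02 in MC-LR livers, against 7.16 to 8.21 in control livers, with Sox9 at -0.73 ± 0.18, Spp1 at -0.54 ± 0.44 and Krt7 at 0.31 ± 0.43. Krt7 was at -0.56 within slide 2, and of 9 cholangiocyte probes 2 were lower, or 0 with slide as a block and 1 with 1 probe per gene. The median of this list by brightest probe was -0.03 over all 6 arrays and -0.72 within slide 2, with 5 and 9 of the 9 probes below 0. The 10 lymphocyte and neutrophil markers lay at 7.82 to 8.49 in MC-LR livers, against 8.12 to 8.78 in control livers, with S100a9 at -0.95 ± 0.41, S100a8 at -0.76 ± 0.42 and Gzma at 0.60 ± 0.23. Of their 15 probes 0 were lower and 1 higher, or 4 lower and 0 higher with slide as a block. The 9 hepatocyte markers lay at 15.66 to 15.72 in MC-LR livers, against 15.66 to 15.87 in control livers, with Fgb at -0.50 ± 0.15, Trf at -0.19 ± 0.12 and Alb at 0.12 ± 0.10. The part of these cell types in the member values was not tested.

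Among 174 genes of these lists, the 3 whose pattern over the 6 arrays was most like that of Cdkn1a were Pecam1 (Pearson r = 0.93), Acta2 (r = 0.92) and Fas (r = 0.92). The 6 points hold 2 groups and 2 slides, so these values describe the arrays and carry no test. Pecam1 stood at 6.74, 6.83 and 6.90 in MC-LR livers, against 7.43, 7.27 and 7.40 in control livers.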

How the data were processed

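RNA from 6 mouse livers was labelled with Cy3 and hybridised to 6 single-colour arrays, per the labels' protocols. Sample titles gave the group and the replicate number. Scans were read with Agilent Feature Extraction 10.7, according to the submitters' processing notes, into spot intensity values, and the processed signal intensity is background-subtracted within the array, per the file headers. The authors deposited log2 values after quantile normalization in GeneSpring, as the design text states. Each column correlated at r of 0.9982 or more with the logged scanner signal of the same array and had a median of 5.94, so the table is log2, not centred, with higher meaning more signal. These values were used for all results, and the scanner files gave background flags, spots and slides.

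Probes that 1 group or both had well above background on every array (28500 of 41174) were fitted with limma 3.58.1 in R 4.3.3 (two-sided, 4 residual and 2.18 prior degrees of freedom), each probe its own feature, with Benjamini-Hochberg adjustment over all probes and a threshold of 0.05. Intervals are 95%. A gene was represented by its brightest probe where 1 value was needed. A test on simulated data drawn from these probes used 10 runs and 200 changed probes of 28500. The fit recovered 42.1% of probes shifted by 1 log2 unit and 78.7% of those shifted by 2. These shares belong to that setting and do not give the power for a single member. The members and lists were chosen with earlier results of these data known. All member probes are described, and of each other list the 3 genes with the smallest p by brightest probe, since none passed, and the 3 genes most correlated with the member of largest difference. Alternatives were other background corrections and scalings (normexp with offset 50, 75th percentile), filters, 1 probe per gene, slide as a block or alone, the replicate number as a block, other moderation, and each array left out.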

Additional observations from a re-analysis of the deposited data

How the results depend on the processing

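Across 17 alternatives, 0 member probes passed the adjusted threshold (limma), and Cdkn1a kept its direction in all of them, with differences of -2.17 to -1.40 and adjusted p from 0.0701 to 0.629. The 8 member probes at an unadjusted p under 0.05 became 3 with 1 probe per gene, by construction since 10 probes were then left, and 5 within slide 2, and with each array left out they numbered 3 to 7, both in all and on the lower side alone. Of all probes tested, 5.41% were lower with 1 probe per gene, 5.71% within slide 2 and 2.76% to 9.39% with each array left out. The median difference of the 10 genes was -0.47 to -0.22 with each array left out. The 3 probes past the adjusted threshold over all probes became 13 with slide as a fixed block, 1 under 75th percentile scaling, 1 with probes well above background on all 6 arrays, 0 within slide 2 (3322 at an unadjusted p under 0.05), and 1 to 70 with each array left out, the 70 without control 3, where slide and group coincide. With the replicate number as a block, which the labels do not tie to a shared batch and which same-numbered arrays did not bear out (correlations of their deviations 0.17, -0.30 and -0.18), 0 probes passed (2875 at an unadjusted p under 0.05). In that fit 6 of the 18 member probes were lower at an unadjusted p under 0.05, beside 3.9% of all probes tested. Only 2 Sesn1 probes, both near 0, changed sign: A_51_P233954 to -0.21 with slide as a fixed block and within slide 2, to -0.075 with slide as a random block, and to between -0.092 and 0.13 with each array left out, and A_52_P53596 to between -0.099 and 0.058 with each array left out. The causes were not tested.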

Other observations

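The dimmer Trp53inp1 probe, A_52_P503387, holds a stretch of 26 bases that occurs again within its own 60 bases, while the longest repeated stretch in the other 17 member probes is 4 to 7 bases. It stood at 10.82, 11.17 and 11.75 in MC-LR livers, against 11.49, 11.50 and 12.10 in control livers, and gave a difference of -0.45, close to the -0.48 of the other probe of the gene.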
